A study of Saccharomyces cerevisiae with 30 samples.

Results

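The nuclear genes of respiration and ATP synthase are the 34 genes of the yeast nuclear genome that were chosen here by name as subunits of the respiratory chain and of ATP synthase, out of 7127 features in the deposited table. They comprise the 4 subunits of succinate dehydrogenase, 9 subunits of the bc1 complex, the cytochrome c gene CYC1, 8 subunits of cytochrome c oxidase and 12 subunits of ATP synthase. The choice used names and not measured values, but it was made with earlier results of these data known. All 34 rows were found by their systematic names, and no value of these genes was at 0 at any time point. Transcript levels came from a MATa bar1 strain of Saccharomyces cerevisiae in the BF264-15D background, which lacks the protease that degrades the mating pheromone alpha-factor. The culture was kept in rich YEP medium with 2% dextrose at 38.5°C, a mild chronic heat stress, was held before the cell cycle by 40 ng/ml alpha-factor for 150 min, and was then released. One culture was sampled every 10 min until 290 min, which gave 30 time points with 1 library each. Every time point shares the strain, the medium and the temperature, and what sets the libraries apart by label is the time since release, with 0 min in arrest. A culture that was never arrested was not among these samples.

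Levels are given in TPM, in which reads are divided by transcript length and scaled so that each library adds up to 1000000. They are therefore shares of a fixed total, and the depth behind a value is unknown. There are no replicates, and neighboring time points do not stand in for them, so that the differences below are descriptions without a test. The spread that can be given is the standard deviation (SD) over 24 time points, which leave out 0, 10 and 20 min and the time points 100, 140 and 150 min. The time points 100, 140 and 150 min are called STRIPEs, after their look in a heat map where levels across the transcriptome stand apart from those of the neighbors. The sources used here differ on whether 100 or 110 min belongs with 140 and 150 min, and 110 min was kept among the 24 time points. The detector for such time points also marked 0, 10 and 20 min. For these the study's authors suspected a possible biological origin in the release, and they did not interpolate them. The origin was not tested here. Differences are on the log2(TPM + 1) scale, averaged over the time points of a window. A gene was called higher or lower when its difference was at least 1.5-fold, and the same rule over the 6369 features that averaged 1 TPM or more gives the background. The median of those features stood at 76.8% of their own 24-time-point level at 0 min and at 74.2% at 10 min, and between 90.1% and 115% from 20 min on. Fewer cells with a transcript and less transcript per cell cannot be told apart in such a culture. Of the MATa markers, STE2, the alpha-factor receptor, was between 164 and 343 TPM and STE6, the a-factor exporter, between 35.7 and 72.7 TPM. The a-factor genes MFA1 and MFA2, with coding lengths of 111 and 117 bases, were listed at 0 at 28 and 5 of the 30 time points. Otherwise MFA1 was at 1633 and 1261 TPM, at 70 and 150 min, and MFA2 had a median of 1984 TPM and reached 2714 TPM. The levels of these 2 very short genes thus jumped between neighboring time points. BAR1 was listed at 0 throughout, and the alpha-cell genes MF(ALPHA)1, MF(ALPHA)2 and STE3 reached 5.09, 22.2 and 8.49 TPM.

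Respiration in yeast moves electrons from NADH and succinate through ubiquinone to the bc1 complex, which hands them to cytochrome c, and cytochrome c oxidase passes them on to oxygen. The proton gradient built on the way drives ATP synthase, a rotary enzyme with a catalytic F1 head and a membrane part. Budding yeast has no proton-pumping complex I and uses single-subunit NADH dehydrogenases, and most subunits of the remaining complexes are encoded in the nucleus while a few come from the mitochondrial genome. With ample dextrose this yeast ferments, and many of these nuclear genes are repressed by glucose. The Hap2/3/4/5 complex, which binds CCAAT, and the heme-responsive factor Hap1, whose sites contain CGG triplets, are known activators of respiratory genes.

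The promoter windows of these genes, taken as the 500 bases before the annotated start codon in R64, were searched for letters known from those regulators, because the members differ in them. CCAAT, on either strand, was in 31 of 34 windows (91.2%), compared to 62.4% of the 6000 windows of all protein-coding genes. The genes without it were CYC1, CYT1 and COX4. The longer TNATTGGT, whose reverse complement contains CCAAT, was in 14 of 34 windows (41.2%), compared to 8.6% of all. It was in 1 of 4 windows of succinate dehydrogenase, 3 of 9 of the bc1 complex, 4 of 8 of cytochrome c oxidase and 6 of 12 of ATP synthase. CGGNNNTA, letters known from Hap1 sites, was in 9 of 34 windows (26.5%), compared to 34.4% of all. A match is a description of letters and not a binding site. The windows below read 5′ to 3′ on the strand of the gene, with the match in capitals. The first 4 show TNATTGGT in 1 gene each of 4 complexes. The next 2 show CGGNNNTA in CYC1 and COX5A, which had the largest and the fourth largest difference between 10 and 0 min. CYT1 and RIP1, which lie between them in that order, have no CGGNNNTA in their windows. The last 2 show both matches in COX8, which was the 1 gene lower by the same rule.
SDH1 (YKL148C, chrXI:171429-171458, minus strand): ggcgggggtggACCAATCAcagcgcagaac
RIP1 (YEL024W, chrV:107001-107030, plus strand): ctccataacggACCAATCAgcgttttgcgc
COX12 (YLR038C, chrXII:225360-225389, minus strand): tcataacattgACCAATCAattttcagaaa
ATP15 (YPL271W, chrXVI:29934-29963, plus strand): cttttatacgaACCAATGAaatttgatcct
CYC1 (YJR048W, chrX:525854-525883, plus strand): gaaatgaattaTATTTCCGtgtgagacgac
COX5A (YNL052W, chrXIV:531225-531251, plus strand): caattcttCGGAAGTAacgccaagaac
COX8 (YLR395C, chrXII:910149-910178, minus strand): aaacggtttgcACCAATCAtacgagagaag
COX8 (YLR395C, chrXII:910409-910438, minus strand): cggtccatagaCGGATCTAatgggacattt
The TNATTGGT match began 318 bases before the start codon in SDH1, 248 in RIP1, 206 in COX12, 134 in ATP15 and 202 in COX8, and the CGGNNNTA match 470 bases before it in CYC1, 492 in COX5A and 462 in COX8. Members with TNATTGGT had a median log2 difference of 0.62 between 10 and 0 min (14 genes, from -0.66 to 1.84), and the 20 without it had 0.61 (from -0.53 to 3.10). Members with CGGNNNTA had a median of 0.71 (9 genes, from -0.66 to 3.10), and the 25 without it had 0.60 (from -0.07 to 1.86). The ranges of members with and without each motif overlapped widely.

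Together the 34 genes held 0.419% of all TPM at 0 min and between 0.521% and 0.658% afterwards. Their summed level at 0, 10 and 20 min was 4191, 5942 and 6576 TPM, the last being its highest value, and it averaged 5835 ± 301 TPM (SD, 24 time points). Of the 34 genes, 28 had their lowest level at 0 min. The exceptions were QCR6 and COX12 with the lowest level at 60 min, COX8 at 10 min, ATP18 at 90 min, COX9 at 150 min and ATP20 at 270 min. Among all features, 31.5% had their lowest level at 0 min and 36.2% at 10 min. The highest level fell at 10 or 20 min in 10 genes, compared to 3.94% of all features, and at a STRIPE in 13 genes, compared to 35.0%. The plot of levels over time shows the low column at 0 min and the early peaks that followed it.

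**Figure D1:**
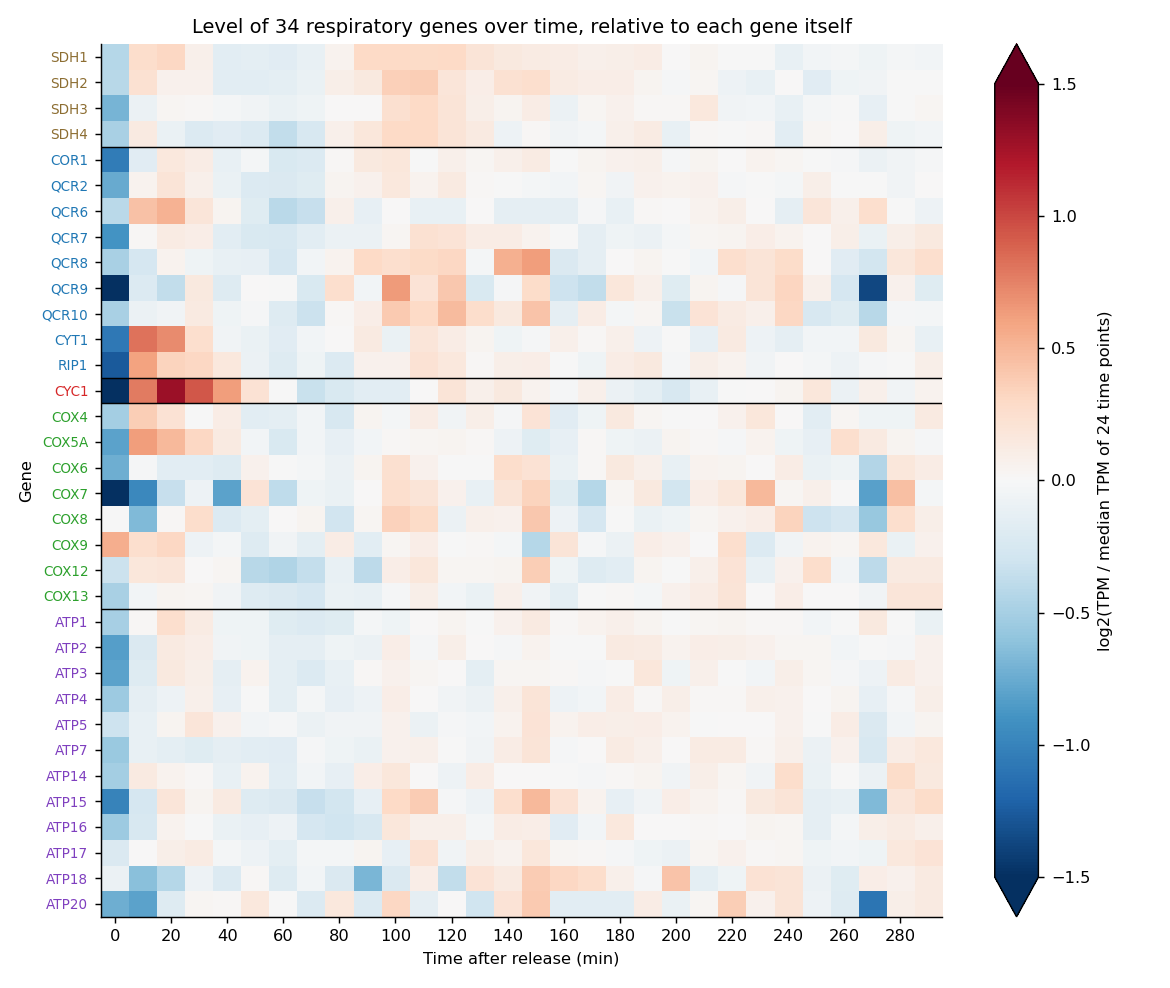
Level of each of the 34 genes (rows, grouped by complex) at each of the 30 time points (columns, min after release), as log2 of the TPM over the gene's own median TPM of 24 time points, with 1 library per time point and colors cut at 1.5 on either side. At 0 min 33 of the 34 genes were below their own median, and COX9 was above it.

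The level of a gene differed more between genes than over time. COX9, which encodes a small subunit of cytochrome c oxidase, was the most abundant, with 509 TPM at its lowest, a median of 692 TPM and 1003 TPM at its highest. It was followed by the F1 beta subunit ATP2 at 463 ± 24.6 TPM (SD, 24 time points) and the F1 epsilon subunit ATP15 at 377 ± 56.5 TPM. COX13, ATP1 (the F1 alpha subunit) and QCR7 averaged 293 ± 24.6, 288 ± 17.1 and 280 ± 24.96 TPM. These SDs are spreads over time points that the genes share, and they do not measure whether levels differ between genes. The lowest was ATP20, the g subunit of the membrane part of ATP synthase, with 22.6 TPM at its lowest, a median of 48.3 TPM and 63.3 TPM at its highest. Just above it were SDH1, the flavoprotein of succinate dehydrogenase, at 54.9 ± 5.38 TPM and SDH2, its iron-sulfur protein, at 57.3 ± 5.30 TPM, with no test of the difference. By TPM, subunits of 1 complex were thus not at equal levels. The coding lengths of the members ran from 180 to 1923 bases, and the part of length in these levels was not tested. Within cytochrome c oxidase the lowest was COX4, with 63.8, 90.6 and 117 TPM as its lowest, median and highest level.

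Within succinate dehydrogenase the membrane anchor SDH3 was the highest, with 113, 184 and 225 TPM as the lowest, median and highest level, and SDH1 the lowest, with 39.7, 55.4 and 66.2 TPM. Within the bc1 complex QCR7 led with 151, 284 and 328 TPM, and QCR10 was the lowest with 48.0, 67.5 and 93.6 TPM. For ATP2 the 3 values were 259, 459 and 503 TPM. Summed per complex, the median over time was 402 TPM for succinate dehydrogenase, 1219 TPM for the bc1 complex, 1798 TPM for cytochrome c oxidase and 2323 TPM for ATP synthase. The sums were lowest at 0 min for each of these but cytochrome c oxidase, which was lowest at 60 min (1617 TPM, compared to 1706 TPM at 0 min). COX9 alone held 1003 TPM of that sum at 0 min and 660 TPM at 60 min.

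The clearest difference in the time series lay between 0 and 10 min. The median of the 34 genes was 0.61 higher on the log2 scale at 10 min, whereas the median of all features was -0.07. Of the 34 genes 30 were above 0 and 20 were called higher, compared to 7.74% of all features. The 1 gene called lower was COX8, compared to 10.7% of all features. This step was chosen for description after the data had been seen, and both of its libraries are among those that the detector for STRIPEs marked. With the levels divided by median-of-ratios factors, which set the typical feature equal between libraries, the median was 0.67 and again 20 genes were called higher and 1 lower, compared to 9.22% and 9.09% of all features. With 20 min in place of 10 min the median was 0.65 and 18 were called higher, compared to 21.2% of all features, whose median was then 0.21.

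**Figure D2:**
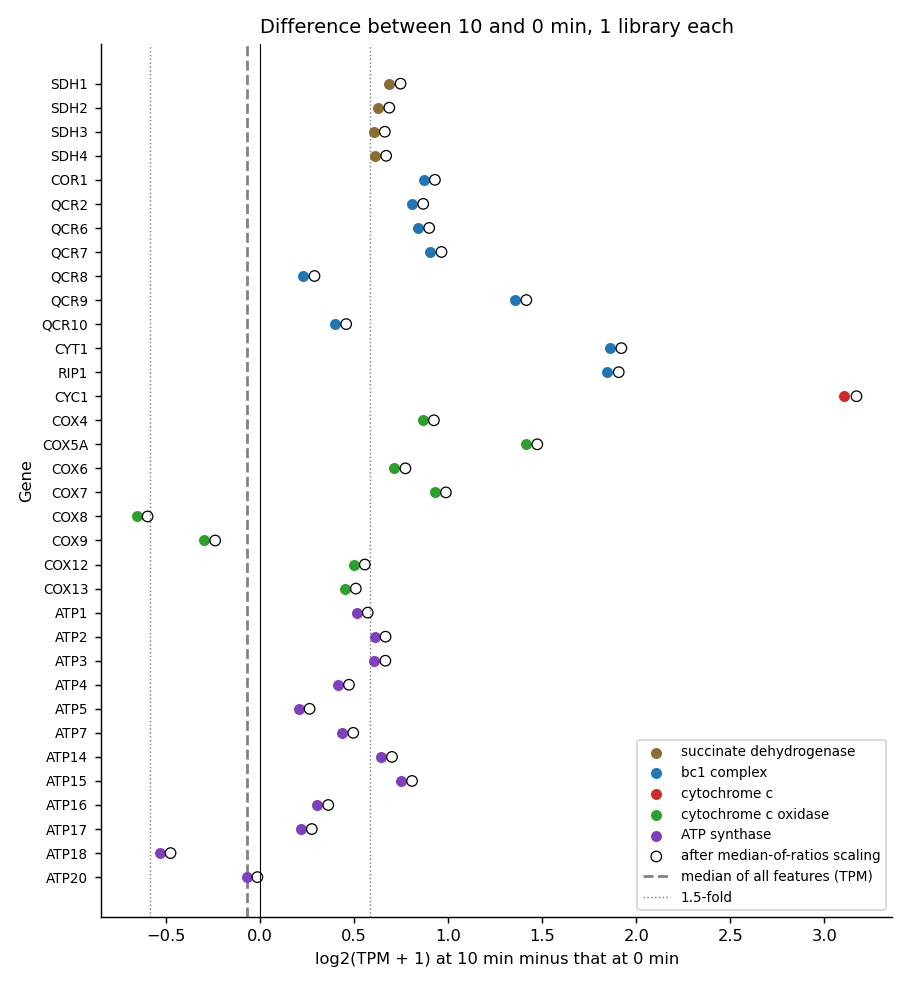
Difference in log2(TPM + 1) between 10 and 0 min for each of the 34 genes, filled and colored by complex, with open circles for values after median-of-ratios scaling, a dashed line at the median of all 6369 features (-0.07) and dotted lines at 1.5-fold. CYC1 stands apart at 3.10, and COX8, COX9, ATP18 and ATP20 lie below 0.

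Cytochrome c gave the largest difference. CYC1 encodes the main form of this soluble electron carrier, and at 0, 10 and 20 min it stood at 34.4, 304 and 428 TPM. It was then 336, 273 and 205 TPM at 30, 40 and 50 min and 140 TPM at 70 min, and between 150 and 201 TPM from 80 min to the end, with a median over all time points of 177 TPM. The difference between 10 and 0 min was 8.60-fold (log2 3.10), and the highest level was 12.4 times the lowest. The level at 0 min was 19.5% and that at 20 min 243% of its median over the 24 time points. No other member covered such a range.

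The bc1 complex followed, with 7 of 9 subunits called higher and a median log2 difference of 0.87. CYT1, the heme-bearing cytochrome c1 that passes electrons to cytochrome c, was at 46.3, 171 and 159 TPM at 0, 10 and 20 min, with its highest level at 10 min and a median of 96.3 TPM. RIP1, the Rieske iron-sulfur protein, was at 45.2, 165 and 136 TPM at these time points (median 111 TPM). Both were thus about as far apart at the first step, by 3.62-fold and 3.59-fold, and both were highest at 10 min. QCR9, a small subunit, was at 47.1 TPM and then 122 TPM, a log2 difference of 1.35, and COR1, QCR2, QCR6 and QCR7 differed by 0.81 to 0.90. The 2 subunits that were not called were QCR8 (68.4 and 80.4 TPM, log2 0.23) and QCR10 (48.0 and 63.5 TPM, log2 0.40).

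**Figure D3:**
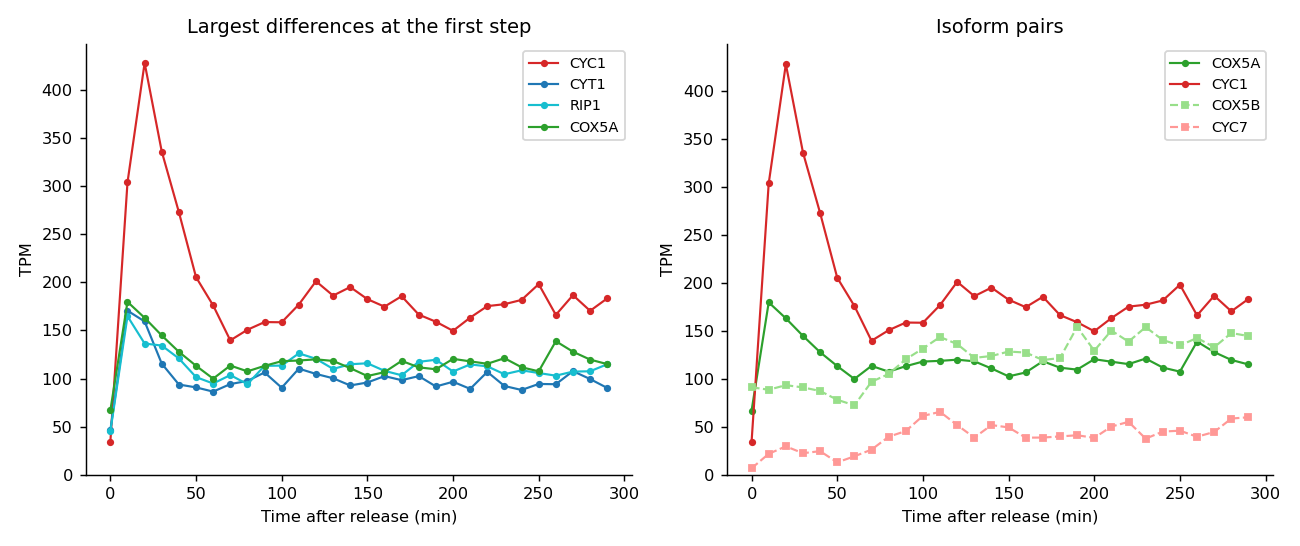
TPM over the 30 time points of the 4 genes with the largest difference between 10 and 0 min (left) and of the isoform pairs COX5A with COX5B and CYC1 with CYC7 (right), 1 library per time point. CYC1 peaks at 428 TPM at 20 min, CYT1, RIP1 and COX5A peak at 10 min, and COX5B lies above COX5A from 90 min on.

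All 4 subunits of succinate dehydrogenase, which feeds electrons from succinate into the chain, were called higher and nearly alike, between 0.60 (SDH3, 113 and 172 TPM) and 0.69 (SDH1, 39.7 and 64.5 TPM). They lay just inside the threshold of 1.5-fold, at 1.52-fold to 1.61-fold. Of the 12 subunits of ATP synthase 4 were called higher, ATP2, ATP3, ATP14 and ATP15, between 0.60 and 0.75, and the median of the 12 was 0.42. Just under the threshold was ATP1 with 0.51, and ATP18 and ATP20 of the membrane part were at -0.53 and -0.07. ATP18 stood at 194.6 TPM at 0 min and 134 TPM at 10 min, and over the series it was lowest at 128 TPM, had a median of 202 TPM and was highest at 277 TPM. For ATP synthase the sum of the subunits was 1514, 1995 and 2359 TPM at 0, 10 and 20 min, so that its level at 20 min lay above that at 10 min.

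Cytochrome c oxidase was the least uniform complex. COX4, COX5A, COX6 and COX7 were called higher, COX12 and COX13 were at 0.50 and 0.45, and COX8 and COX9 were lower at 10 min than at 0 min. COX8, a small subunit, went from 109 to 68.7 TPM, its lowest level, and was at 110 TPM again at 20 min, so that its call rests on the single library at 10 min and its difference was 0.020 with 20 min in place of 10 min. Its median was 110 TPM and its highest level 144 TPM. COX9 was at 1003, 816 and 851 TPM at 0, 10 and 20 min, the only member with its highest level at 0 min. COX5A, the form of subunit V that is used when oxygen is present, was at 66.9 TPM at 0 min and at 180 TPM at 10 min, a 2.66-fold difference, with a median of 117 TPM. With a threshold of 2-fold, 5 members remained called higher, compared to 3.11% of all features, and they were CYC1, CYT1, RIP1, COX5A and QCR9.

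Yeast has a second gene for subunit V and for cytochrome c, COX5B and CYC7, known for their use when oxygen is scarce. COX5B was nearly level at the start, with 91.2 TPM at 0 min and 88.6 TPM at 10 min. The ratio of COX5A to COX5B was therefore 0.73 at 0 min, 2.03 at 10 min, its highest value, and 1.38 at 60 min. From 80 min on it was above 1 at 1 of 22 time points, with a median of 0.86 and a range from 0.71 to 1.02. CYC7 was at 6.80, 21.9 and 65.6 TPM at 0, 10 and 110 min, the last being its highest level. Between 10 and 0 min it was called higher (log2 1.55), compared to 7.74% of all features. CYC1 was above CYC7 at all 30 time points, by 15.9 times at 50 min, where the ratio was highest, and by 2.58 times at 100 min, where it was lowest. The ratios before 80 min thus lay above those from 80 min on for both pairs, apart from 0 min for COX5A to COX5B, which was among the low values. CYC1 to CYC7 was 5.06 at 0 min, above the highest later ratio of 4.80.

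Other genes of the pathway, listed with earlier results of these data known, were compared over the same step, for which 7.74% of all features were called higher and 10.7% lower. Of 11 genes of the tricarboxylic acid cycle, all were above 0 and 5 were called higher, with a median of 0.33. These were the citrate synthase CIT1, the aconitase ACO1, the isocitrate dehydrogenase subunits IDH1 and IDH2 and the malate dehydrogenase MDH1, from 0.89 (MDH1) to 1.49 (IDH1), and the smallest was 0.07 for LSC1, a subunit of succinyl-CoA ligase. IDH1 was at 56.5, 161 and 242 TPM at 0, 10 and 20 min and highest, at 312 TPM, at 40 min. Of 26 assembly factors 3 were called higher and 2 lower, counts near those shares, with a median of 0.27, from -1.04 for COX19 to 0.92 for COX23, both needed to assemble cytochrome c oxidase. Of the 3 NADH dehydrogenases NDE1, which oxidizes cytosolic NADH, was called higher (67.6 and 144 TPM, log2 1.08), and NDE2 was at -0.05. Of 5 carriers of the mitochondrial membranes PET9, the major ADP/ATP carrier, was called higher (294 and 512 TPM, log2 0.80), and AAC3 was the smallest at -0.08. Of 4 further subunits and regulators INH1, an inhibitor of ATP synthase, was called higher (0.89), and STF1 was the smallest (-0.23). Of the 3 paralogs of succinate dehydrogenase subunits none was called, from -0.38 (SDH9) to 0.26 (SHH4). Among the 5 regulator genes HAP4, the activating subunit of the Hap complex, was at 24.03 and 35.2 TPM (log2 0.53), and HAP1 was called lower with 16.4 and 7.12 TPM (log2 -1.10). Of 7 genes of the mitochondrial genome, OLI1, the c subunit of ATP synthase, was the only one that averaged 1 TPM or more, between 6.75 and 55.3 TPM. It was called higher, with 8.56 and 17.9 TPM at 0 and 10 min (log2 0.98). With the others under 1 TPM, the levels of the mitochondrial partners of these complexes can not be compared with them.

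From 30 to 50 min the 34 genes were little above their early levels while the median of all features stood higher. Between 30 to 50 min and 0 to 20 min the median difference of the members was 0.16, with 26 of 34 above 0. The median of all features was 0.39, and 30 of the 34 lay below it. Members with a coding length under 300 bases had a median of 0.23, compared to 0.18 for all features of that length. The medians were 0.10 and 0.26 for 300 to under 600 bases, and 0.20 and 0.42 for 600 bases or more. After median-of-ratios scaling the median of the members turned to -0.27, with 4 above 0, so that the direction of the members here depends on the scaling. By TPM 4 members were called higher, CYC1, COX7, QCR9 and ATP20, compared to 25.9% of all features, and 0 were called lower, compared to 1.51%. The largest differences were 0.84 for COX7, 0.69 for QCR9 and 0.68 for CYC1, and the smallest -0.47 for COX9, -0.18 for QCR6 and -0.14 for COX12. COX7, a small subunit of cytochrome c oxidase, was at 58.1, 111 and 171 TPM at 0, 10 and 20 min and at 206, 125 and 251 TPM at 30, 40 and 50 min. QCR6, an acidic subunit near cytochrome c1, was at 119, 214 and 227 TPM and then at 179, 163 and 138 TPM. Without 0 min the median was -0.033 and 0 members were called higher, compared to 23.5% of all features, and CYC1 was then at -0.44, so that these values rest on the library at 0 min.

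**Figure D4:**
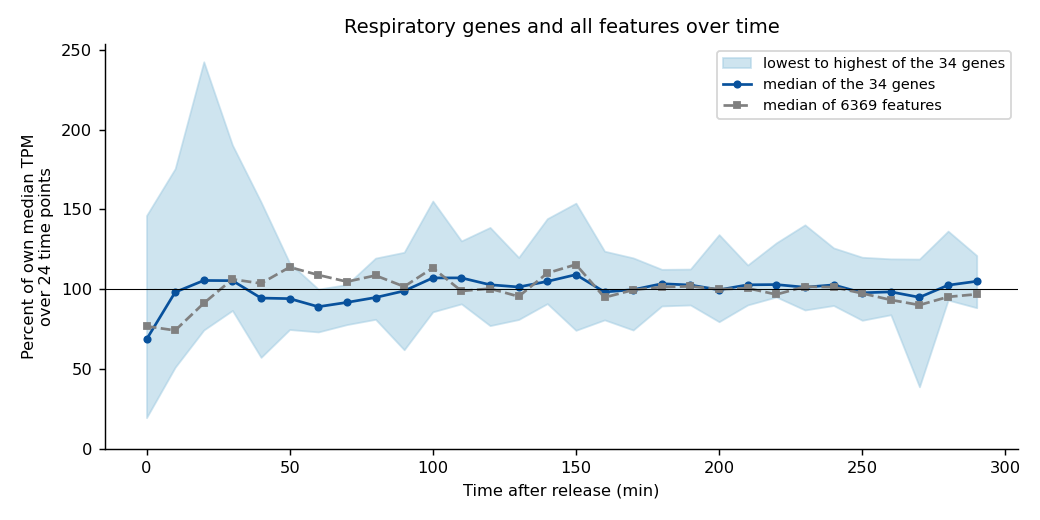
Median of the 34 genes (blue circles) and of 6369 features (grey squares) at each time point, in percent of each gene's own median TPM over 24 time points, with a shaded band from the lowest to the highest of the 34 genes. At 10 min the members' median was 98.2% and that of all features 74.2%, and from 40 to 80 min the members lay below all features.

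From 60 to 80 min, compared to 30 to 50 min, the median of the members was -0.09 and that of all features -0.01, with 26 of 34 members below 0. CYC1, at -0.78, was the 1 member called lower, compared to 1.54% of all features, and 0 were called higher, compared to 2.7%. RIP1 and ATP15 came next at -0.27 each, and ATP7, COX9 and COX6 were the highest at 0.07, 0.07 and 0.05. ATP7, the d subunit of the stalk of ATP synthase, was lowest at 109 TPM, had a median of 159 TPM and was highest at 182 TPM. The steps of 10 min from 20 to 60 min all had a median of the members below 0, with 11, 6, 14 and 6 of 34 genes higher at the later time point. At 60 min the median member stood at 89.0% of its 24-time-point level, from 73.2% for COX12 to 100% for COX8, while the median of all features was at 109%.

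The members were higher again in the window from 110 to 130 min, taken as the second cycle, than from 60 to 80 min. The median was 0.18 and 33 of 34 genes were above 0, whereas the median of all features was -0.13, and all 34 lay above it. With median-of-ratios scaling the median was 0.31 and all 34 were above 0. In 16 of the 34 genes every one of the 3 later time points was above every one of the 3 earlier ones, compared to 6.96% of all features. These were the 4 subunits of succinate dehydrogenase, QCR7, QCR10, CYT1, RIP1, CYC1, COX5A, COX12, COX13, ATP1, ATP2, ATP15 and ATP16. None of the members reached 1.5-fold, compared to 1.68% of all features called higher and 3.41% called lower, although 1 was called higher without 80 min, compared to 2.53%. Without 110 min the median was 0.16. The largest differences were 0.50 for QCR10, 0.38 for SDH4, the second membrane anchor of succinate dehydrogenase, and 0.38 for COX12, and the smallest were -0.12 for ATP20, 0.01 for ATP5 and 0.05 for ATP4. SDH4 was at 85.7, 93.6 and 117 TPM at 60, 70 and 80 min and at 136, 127 and 122 TPM at 110, 120 and 130 min. QCR10 was at 59.0, 54.1 and 68.1 TPM and then at 83.0, 93.6 and 80.9 TPM. COX12 was at 99.6, 106 and 126 TPM and then at 153, 139 and 139 TPM, so that the windows of these 3 genes did not overlap. ATP5, the subunit that links the F1 head to the stalk, was at 138, 131 and 134 TPM and then at 132, 138 and 136 TPM, and its windows overlapped, as did those of ATP4. Succinate dehydrogenase had the highest median of the multi-subunit complexes (0.30), followed by the bc1 complex (0.18), cytochrome c oxidase (0.17) and ATP synthase (0.12). Its summed level was highest at 110 min, at 500 TPM. CYC7 was called higher in this comparison (0.88) while CYC1 was at 0.28.

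At the STRIPEs at 140 and 150 min, compared to 130 and 160 min, the members stood below the rest of the transcriptome. Their median was 0.09, compared to 0.25 for all features, and 28 of 34 lay below the latter. With median-of-ratios scaling the median of the members was -0.16 and 6 of 34 were above 0, so that their direction at these time points depends on the scaling. By TPM the 1 member called higher was QCR8, compared to 7.21% of all features, and 0 were called lower, compared to 1.05%. QCR8, a subunit of the bc1 complex that binds ubiquinone, was at 94.0 TPM at 130 min, 138 and 148 TPM at 140 and 150 min and 82.7 TPM at 160 min, a difference of 0.69, and 2 members were called higher without 140 min, compared to 12.5% of all features, or without 160 min, compared to 8.13%. Its lowest, median and highest levels over the series were 68.4, 96.3 and 148 TPM. The next were ATP20 (0.51) and COX7 (0.41), and the smallest were COX9 (-0.34), CYT1 (-0.10) and COX5A (-0.07). COX9 was at 695, 673, 509 and 788 TPM from 130 to 160 min, so that its lowest level of the series fell at 150 min, at which 8 other members had their highest. The 9 members with a coding length under 300 bases had a median of 0.24 (from -0.34 to 0.69), those of 300 to under 600 bases 0.07 (14 genes) and those of 600 bases or more 0.08 (11 genes). For all features the medians of these classes were 0.09, 0.13 and 0.27, so that short members lay above and long members below the features of like length. OLI1, also short and encoded in the mitochondrial genome, differed by 1.48. The part of transcript length in these values was not tested.

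**Figure D5:**
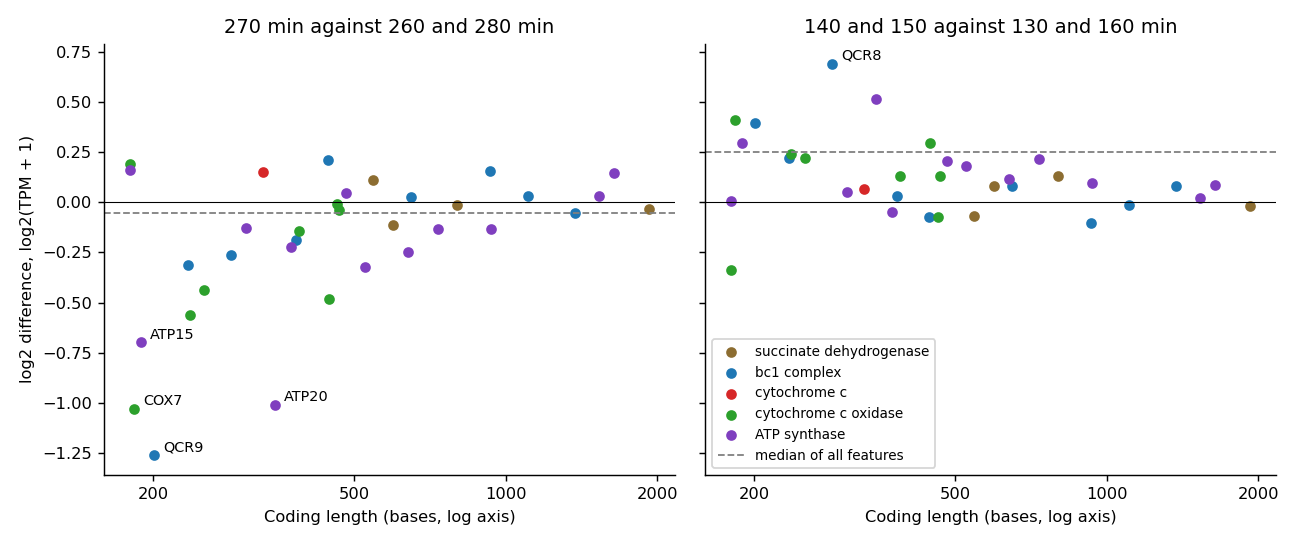
Difference in log2(TPM + 1) against coding length (bases, log axis) for the 34 genes, for 270 min against 260 and 280 min (left) and for 140 and 150 min against 130 and 160 min (right), with a dashed line at the median of all features and names on genes past 1.5-fold. At 270 min QCR9, COX7, ATP20 and ATP15 lie lowest, at coding lengths of 183 to 348 bases, and the 11 genes of 600 bases or more lie between -0.25 and 0.15.

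Late in the time series the members were nearly level. Between 250 to 290 min and 160 to 200 min their median was -0.02 (all features -0.08), with 13 of 34 above 0 by TPM and 26 after median-of-ratios scaling, where the median was 0.06. Without 270 min the median by TPM was 0.013. None was called higher, compared to 0.581% of all features, or lower, compared to 0.911%. QCR6, CYC1 and QCR7 were the highest at 0.13, 0.12 and 0.11, and QCR9, ATP18 and ATP15 the lowest at -0.20, -0.20 and -0.13. QCR7 was lowest at 151 TPM, had a median of 284 TPM and was highest at 328 TPM over the series, and its level from 250 to 290 min was between 262 and 311 TPM, which overlaps with its range of 256 to 279 TPM from 160 to 200 min.

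The exception was 270 min, chosen after the values had been seen. Compared to 260 and 280 min, 4 members were called lower, compared to 4.29% of all features, and 0 were called higher, compared to 2.03%. QCR9 was at 118, 54.4 and 147 TPM at 260, 270 and 280 min (log2 -1.26), COX7 at 217, 124 and 297 TPM (-1.03), ATP20 at 42.2, 22.6 and 51.3 TPM (-1.01) and ATP15 at 350, 239 and 429 TPM (-0.70). Over the series ATP15 was lowest at 188 TPM, had a median of 386 TPM and was highest at 530 TPM, QCR9 had 47.1, 139 and 218 TPM as these values, and COX7 had 58.1, 218 and 306 TPM. The 3 genes at the other end were QCR6 (0.21), COX9 (0.19) and ATP18 (0.16), and COX9 and ATP18 have the shortest coding sequences of all members (180 bases each). The members under 300 bases had a median of -0.44, from -1.26 to 0.19, and those of 600 bases or more -0.01. For all features the 2 classes had medians of -0.01 and -0.06. OLI1, of 231 bases and encoded in the mitochondrial genome, differed by -1.09. Over the 24 time points, of which 270 min is 1, the SD was 15.0% of the mean for the median member under 300 bases and 6.03% for the median member of 600 bases or more, compared to 18.9% and 11.5% for all features of those lengths. The most variable were CYC1 (22.3%), COX7 (20.3%) and QCR9 (19.6%), and the least variable was ATP4 (5.26%), the b subunit of the stalk. ATP4 was lowest at 77.1 TPM, had a median of 113 TPM and was highest at 129 TPM. The part of length in the values at 270 min was not tested. Over the 24 time points the median SD of the 34 genes was 8.45% of the mean, compared to 12.1% for all features. Of the 34 genes 6 covered 2-fold or more over these time points, compared to 24.2%. The median level of the members was 139 TPM, and the features compared were not matched for level. The part of level in this spread was not tested.

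The members resembled each other over the 30 time points. The Pearson correlation of log2(TPM + 1) of a member with the mean profile of the other 33 had a median of 0.71, from -0.47 (COX9) to 0.92 (QCR7), with 19 members at 0.7 or more. The median over 6335 other features with that profile was 0.24. These values describe 30 libraries of 1 culture that all genes share, and 0 min was the lowest point for most members. Without 0, 10 and 20 min the median was 0.59 for the members and 0.030 for the other features. Of the 4 genes with the largest difference between 10 and 0 min, CYC1, CYT1 and COX5A then had correlations of 0.09, 0.18 and 0.12, down from 0.69, 0.62 and 0.57, but RIP1 had 0.67, down from 0.82. COX8 had 0.62, up from 0.30, and COX12 0.75. COR1 and QCR7 were at 0.75 and 0.76 and thus followed the others in both. COX9 (-0.12) and ATP18 (0.13) had low values in either case. Between pairs of subunits the median correlation was 0.76 within succinate dehydrogenase, 0.62 within ATP synthase, 0.61 within the bc1 complex and 0.32 within cytochrome c oxidase, and it was 0.51 between subunits of different complexes.

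The 10 other features whose profile was most like the mean of the members, among those with a mean of at least 10 TPM, had correlations from 0.83 to 0.91. They were YNK1, a nucleoside diphosphate kinase, ALG14 and QRI1, which act in the supply and use of N-acetylglucosamine for protein glycosylation, the G1 cyclin CLN2, MCR1, an NADH-cytochrome b5 reductase of mitochondria, the glutaredoxin GRX2, the lipid phosphatase LPP1, UBX6, YOR131C and YLR326W. At 0, 10, 20, 60 and 110 min YNK1 was at 65.6, 184, 227, 122 and 196 TPM. MCR1 was at 68.5, 128, 147, 117 and 173 TPM at these time points. CLN2 was at 23.04, 72.8, 70.35, 44.95 and 63.5 TPM. All 10 were higher at 10 min than at 0 min, by 0.45 to 1.62 on the log2 scale, as the choice by likeness would give.

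The members were also ranked for periodicity. With cosine curves of 60 to 120 min as templates, 4 of 34 (11.8%) were in the top 1000, compared to 15.1% of the 6622 features that vary. These were CYC1 at rank 56, RIP1 at 373, COX5A at 676 and QCR7 at 843, and the median rank was 3256. CYC1, RIP1 and COX5A are 3 of the 4 genes with the largest difference between 10 and 0 min, and CYT1, which completes these, was at rank 3976. The count was 8 without 0, 10 and 20 min, 7 with median-of-ratios scaling and 2 without 100, 140 and 150 min, so that it lay on either side of the share of all features.

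The second deposited table holds Z-scores per feature that were then quantile normalized over time points. By these scores the members were low at 0 min and high at 10 min. The median score of the members was -0.94 at 0 min, with 3 of 34 above 0, and 0.84 at 10 min, with 30 above 0. It was -1.01 at 60 min, with 0 of 34 above 0 at each of 50, 60 and 70 min, and 0.79 at 110 min, with 30 above 0. For Z-scores of the TPM without that normalization the medians of the members at 0, 10, 60 and 110 min were -2.75, -0.13, -0.92 and 0.67. The medians of all features at these time points were -1.42, -1.68, 0.56 and -0.18. The member median at 10 min thus differed in sign between the tables, with 15 of 34 members above 0 by Z-scores of the TPM. At 150 min 26 of 34 members were above their own mean by TPM (median Z-score 0.94, all features 0.97) and 16 by the normalized score (median -0.07).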

How the data were processed

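The members and gene lists were chosen with earlier results of these data known. The study's authors aligned reads of stranded mRNA libraries with STAR to build R64, per the submitters' processing notes, quantified them with RSEM and deposited TPM; versions and the annotation are not given in the sources used here. The authors also deposited a table of scores, which equal Z-scores of the TPM taken first and quantile normalized afterwards for all 34 members to within 1e-09, and for 99.5% of all scores. No deposited column was left unmapped (0).

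Each time point has 1 sample, so windows of time points were compared by the mean of log2(TPM + 1), with a pseudocount of 1, a call at 1.5-fold and a filter at a mean of 1 TPM for the background. Windows were taken before and after release, in the second cycle, at the STRIPEs and late in culture. The comparisons of 10 with 0 min and of 270 min with its neighbors were added after the values had been seen. Named are the members with the highest and lowest mean of each complex, the 3 largest and 3 smallest differences of each comparison, the largest and smallest of each list, and the 10 features with the most similar profile. Periodicity was ranked by Kendall's statistic. Coordinates and the coding lengths, known for 90.5% of the features in the background, came from the R64 assembly, in which no annotated gene overlaps a member. Alternatives were median-of-ratios scaling, quantile normalization, pseudocounts of 0.1 and 10, a 2-fold call, no filter, and leaving out time points. Computations used Python 3.11.15, numpy 2.4.6, pandas 2.3.3, scipy 1.17.1 and matplotlib 3.10.9, and were tested on simulated data.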

Additional observations from a re-analysis of the deposited data

How the results depend on the processing

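No paired analysis was possible because no time point was sampled more than once. The members' median log2 differences and counts of calls under alternatives that moved them were as follows, and the cause was not tested. Counts given here without a share of all features are not set against a background, and nothing about the members is read from them. Median-of-ratios scaling gave medians of -0.27 for 30 to 50 min against 0 to 20 min, 0.31 for the second cycle, -0.16 for the STRIPEs, 0.058 for the late culture and -0.056 for 270 min. The calls were then 0 higher and 2 lower for the window after release, 1 higher for the second cycle, and 0 higher and 1 lower for the STRIPEs. Quantile normalization of the TPM gave -0.095 with 1 higher after release, -0.013 with 0 higher at the STRIPEs, and 0 lower for 10 against 0 min. A 2-fold call left 5 higher for 10 against 0 min, compared to 3.11% of all features, and 0 lower. It left 0 higher after release, 0 lower for 60 to 80 min and 0 higher at the STRIPEs. With 20 min in place of 10 min 0 were lower and COX8 was at 0.020. Leaving out 1 time point gave medians after release from -0.033 (without 0 min, where CYC1 was at -0.44) to 0.28 (without 20 min, where CYC1 was at 1.36). After release 0 to 6 were then higher and 0 to 1 lower, with 0 higher without 0 min, compared to 23.5% of all features. In the second cycle 0 to 1 were higher (1 without 80 min, compared to 2.53%). At the STRIPEs 1 to 2 were higher (2 without 140 min, compared to 12.5%, or without 160 min, compared to 8.13%). The other medians were then -0.13 to -0.056 for 60 to 80 min, 0.13 to 0.22 for the second cycle, 0.060 to 0.12 for the STRIPEs, -0.044 to 0.013 for the late culture, above 0 only without 270 min, and -0.11 to -0.075 at 270 min. Without members under 300 bases 0 were higher at the STRIPEs, and 1 was lower at 270 min, where the median was -0.038. The median correlation of the members was 0.78 with median-of-ratios scaling and 0.59 without 0, 10 and 20 min. Members among the top 1000 periodic features numbered 7 with median-of-ratios scaling, 8 without 0, 10 and 20 min and 2 without 100, 140 and 150 min. TNATTGGT in place of CCAAT gave 14 genes. Of 383 values of single genes under alternatives, 2 whose main difference had reached 1.5-fold changed direction, those of COX8 and CYC1 above. Changes of sign in smaller differences were not counted. ATP20 in the second cycle, for example, was at -0.12 by TPM and at 0.013 with median-of-ratios scaling. Leaving out members under 300 bases and all alternatives for 10 against 0 min and for 270 min were chosen after seeing the data. Depth is unknown for TPM, and 1 culture with 1 library per time point limits all values.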
